A study of Mus musculus with 8 samples.

Results

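The Acsm and glycine conjugation enzymes are 7 mouse genes, the medium-chain acyl-CoA synthetases Acsm1 to Acsm5 and the glycine N-acyltransferase family members Glyat and Keg1. They were taken by symbol from the 46517 Ensembl genes counted in each library, with the symbols of GENCODE vM21. Of the 7 genes, 6 had enough reads to be tested, out of 15382 genes tested in all. Acsm4 did not. Whole kidneys were compared by mRNA sequencing in 4 cKO mice (KO16, KO18, KO19 and KO20) and 4 Control mice (C10, C11, C13 and C14). The cKO mice were Xpr1lox/lox with Pax8-rtTA, a doxycycline-dependent activator driven by the Pax8 promoter in the renal tubule, and LC1 (also labelled LC-1), a transgene in which that activator switches on Cre recombinase. Their Xpr1lox/lox littermates without the transgenes served as Control mice. Exon 2 of Xpr1 was floxed in both groups, and both drank doxycycline at 2 mg/ml for 2 weeks from 8 weeks of age. Loss of Xpr1, a phosphate exporter, and presence of rtTA and Cre therefore cannot be told apart. The labels tell the mice apart only by name, and the p-values measure spread among these 8 libraries.

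Carboxylic acids such as benzoate and medium-chain fatty acids are detoxified in mitochondria in a pair of steps. An ACSM synthetase first joins the acid to coenzyme A, and an N-acyltransferase such as GLYAT then moves the acyl group to glycine, giving hippurate and other acylglycines that leave in the urine. In the kidney this work is known from the proximal tubule, which also secretes the products through organic anion carriers.

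Reads assigned to genes ran from 20366113 (KO16) to 26155030 (C13). Xpr1 was at 5.74 to 26.5 CPM (reads scaled to the library's TMM-adjusted size) in cKO kidneys and at 80.2 to 126 CPM in Control kidneys, with a log2 fold change of -2.65 (edgeR adjusted p = 0.00491). Libraries KO16, KO20 and C11 stood apart in how read counts depended on transcript length. The slope of log2 CPM on log2 exonic length was 0.0417 in KO16 and 0.315 in KO20, against 0.684 in KO19 and 0.744 in KO18. It was 0.792 in C11 and 0.426 to 0.548 in the other Control libraries. For the members and pathway genes named, log2 fold changes and differences of log2 ratios that moved by over 1.5 times without these 3 libraries are given both ways. The 1.5 times refers to the log2 values, not to the folds. Xist had 20 reads over all 8 libraries, and none of the 4 Y-linked genes tested passed the test.

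Across all genes, 14.1% of those tested passed an edgeR adjusted p under 0.05. By direction, 6.61% fell and 7.5% rose in cKO kidneys. Of the members, 5 of 6 tested fell (Acsm1, Acsm2, Acsm3, Acsm5 and Keg1), 0 rose, and Glyat did not pass. In each of those 5 genes every cKO library was below every Control library, a pattern seen in 11.6% of all genes tested. Together the members took 0.266 ± 0.0867% of gene reads in cKO kidneys and 1.02 ± 0.0626% in Control kidneys (SD, n = 4 each). These are whole kidneys, so fewer cells of a type and less RNA per cell cannot be told apart.

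**Figure D1:**
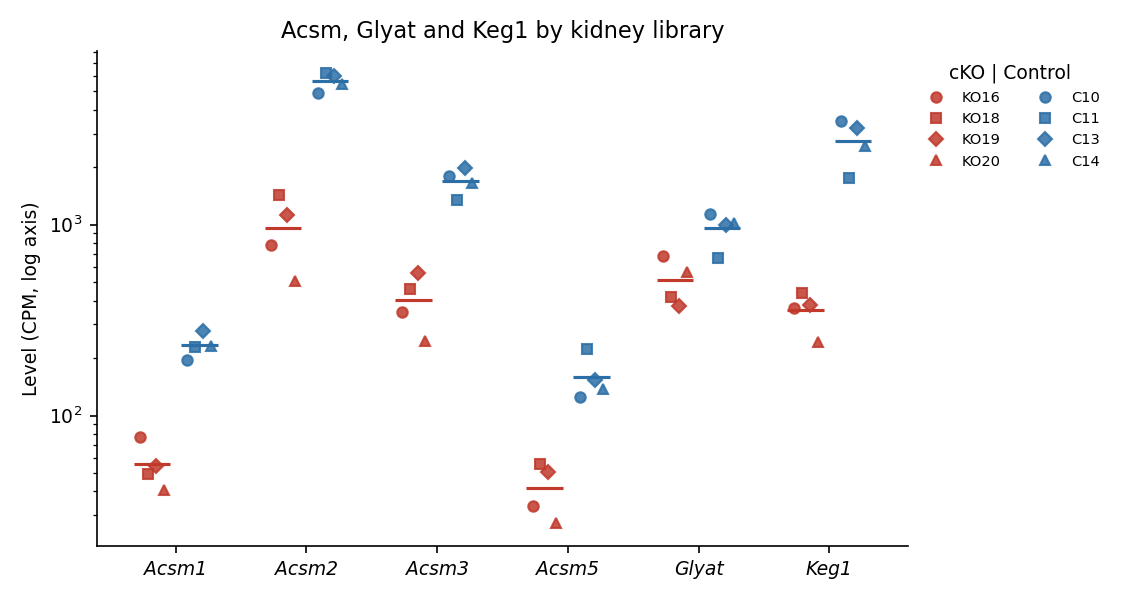
Level in CPM (log axis) of the 6 tested members in each library, cKO on the left and Control on the right of each gene; horizontal lines are group means. Every cKO point lies below every Control point for each gene but Glyat, where KO16 at 689 CPM is above C11 at 673 CPM.

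Acsm2, the most abundant of the synthetases by reads, lies on the plus strand of chr7:119554340-119600690 (build GRCm38). It had 778, 1433, 1125 and 508 CPM in KO16, KO18, KO19 and KO20, against 4893, 6215, 6027 and 5466 CPM in C10, C11, C13 and C14. The groups were far apart, with KO20 lowest among the cKO kidneys and KO18 highest. The mean was 961 ± 404 CPM in cKO kidneys and 5650 ± 597 CPM in Control kidneys (SD, n = 4 each), a log2 fold change of -2.56 (SE 0.34, edgeR adjusted p = 0.00187), or 5.88-fold lower. By reads per kilobase of exonic length it ranked 357 among the genes tested in cKO kidneys and 40 in Control kidneys.

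Acsm3, a mitochondrial synthetase first known as the SA gene of hypertensive rats, had 347, 459, 557 and 247 CPM in KO16, KO18, KO19 and KO20, against 1803, 1342, 1989 and 1656 CPM in C10, C11, C13 and C14. The groups did not overlap, KO20 was again the lowest and C11 was the lowest Control. Its mean was 402 ± 134 CPM in cKO kidneys and 1697 ± 273 CPM in Control kidneys, with a log2 fold change of -2.08 (SE 0.30, edgeR adjusted p = 0.0024). Part of its transcript is shared with Eri2, an exonuclease gene on the opposite strand: 27.0% of the 50-base stretches of the principal Acsm3 transcript also occur in Eri2 transcripts. How reads over that part were assigned is unknown, because the strand setting of the counting was not given in the sources used here. Eri2 itself was at 10.8 ± 1.59 CPM in cKO kidneys and 10.5 ± 1.26 CPM in Control kidneys, with a log2 fold change of 0.04 (edgeR adjusted p = 0.926) that turned sign without C11 (-0.03) or without KO18 (-0.01).

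Acsm1, also known as a butyrate-activating synthetase, had 77.5, 49.7, 54.2 and 40.8 CPM in KO16, KO18, KO19 and KO20, against 196, 228, 277 and 231 CPM in C10, C11, C13 and C14. Here KO16, not KO18 or KO19, was the highest cKO kidney, and the groups did not overlap. The mean was 55.6 ± 15.7 CPM in cKO kidneys and 233 ± 33.3 CPM in Control kidneys, a log2 fold change of -2.07 (SE 0.25, edgeR adjusted p = 0.00118). Acsm5, a less studied family member, had 33.7, 56.0, 50.6 and 27.3 CPM in KO16, KO18, KO19 and KO20, against 125, 222, 154 and 137 CPM in C10, C11, C13 and C14. C11 was the highest Control for Acsm5 and for Acsm2, and the lowest for Acsm3. Acsm5 averaged 41.9 ± 13.6 CPM in cKO kidneys and 160 ± 43.4 CPM in Control kidneys, a log2 fold change of -1.93 (SE 0.30, edgeR adjusted p = 0.0037). Acsm4, known in the rat as an olfactory synthetase, had 0 reads in each cKO library and in C11, C13 and C14, and 1 read in C10. A count of 0 allows up to 3 reads, which is 0.0909 to 0.159 CPM in the cKO libraries and 0.120 to 0.133 CPM in C11, C13 and C14, for counting error alone, so no fold was computed for it.

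Keg1, a kidney-expressed gene that encodes a protein of the glycine N-acyltransferase family, had the most negative log2 fold change of the members. It had 365, 439, 379 and 242 CPM in KO16, KO18, KO19 and KO20, against 3483, 1762, 3212 and 2576 CPM in C10, C11, C13 and C14. All cKO kidneys were close together and far below the lowest Control, C11. Its mean was 356 ± 82.8 CPM in cKO kidneys and 2758 ± 765 CPM in Control kidneys, a log2 fold change of -2.95 (SE 0.31, edgeR adjusted p = 0.000671), or 7.74-fold lower. By reads per kilobase of exonic length it ranked 758 in cKO kidneys and 72 in Control kidneys. An antisense transcript, Gm15962, shares 7.56% of the 50-base stretches of the principal Keg1 transcript, and had 47 reads over all 8 libraries.

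Glyat, the enzyme that makes hippurate from benzoyl-CoA and glycine, did not pass the test. It had 689, 418, 375 and 568 CPM in KO16, KO18, KO19 and KO20, against 1136, 673, 1001 and 1019 CPM in C10, C11, C13 and C14. KO16 exceeded C11, so the groups overlapped, and KO16 and KO20, the lowest cKO kidneys for Acsm2 and Acsm5, were the highest here. The mean was 512 ± 144 CPM in cKO kidneys and 957 ± 199 CPM in Control kidneys, a log2 fold change of -0.90 (SE 0.27, 95% interval -1.52 to -0.29, edgeR adjusted p = 0.0588). Both libraries in the overlap stand apart by transcript length. Glyat fell without KO16 (-1.08, edgeR adjusted p = 0.0197), without C11 (-1.04, adjusted p = 0.0389) and without KO16, KO20 and C11 together (-1.45, adjusted p = 8.76e-06). It also passed in the fit with the length slope as a covariate (-1.09, adjusted p = 0.000299), by DESeq2 (-0.90, adjusted p = 0.0243) and by limma-voom (-0.92, adjusted p = 0.04999). In all it passed in 6 of 17 other fits. Some of these fits called far more genes than the 2170 of 15382 in the main fit. Over all genes, 5111 of 15382 passed with the length slope and 9175 of 15881 without KO16, KO20 and C11. In the 11 fits where it did not pass, the adjusted p ran from 0.0652 (library totals alone, -0.60) to 0.187 (without KO20, -0.85), and it was 0.0933 with RLE factors, 0.147 without C10, 0.15 without C13 and 0.146 without C14.

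The 5 members that fell did so in all 17 other fits. The largest adjusted p over those fits was 0.00917 for Acsm1, 0.00954 for Acsm2, 0.0126 for Acsm3, 0.0179 for Acsm5 and 0.00444 for Keg1. Without KO16, KO20 and C11, all 6 tested members fell. In that fit of KO18 and KO19 against C10, C13 and C14, 9175 of 15881 genes passed and 4486 fell. Over all genes, 1016 fell in the main fit, 575 without C13, 566 without KO20 and 548 with library totals alone. Scaling to library totals alone put the median of all genes at 0.34 on the log2 scale, and the same 5 members fell under it.

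The promoters of Acsm2, Acsm1, Keg1 and Glyat are shown because Acsm2 and Keg1 had the largest drops of their families, Glyat did not pass, and Acsm1 and Acsm2 hold the motif matches found. Each runs from 250 bases before to 50 bases after a RefSeq start site (RefSeq, build GRCm38.p6), with matches in capitals.
Acsm2 (chr7:119554090-119554389, plus strand): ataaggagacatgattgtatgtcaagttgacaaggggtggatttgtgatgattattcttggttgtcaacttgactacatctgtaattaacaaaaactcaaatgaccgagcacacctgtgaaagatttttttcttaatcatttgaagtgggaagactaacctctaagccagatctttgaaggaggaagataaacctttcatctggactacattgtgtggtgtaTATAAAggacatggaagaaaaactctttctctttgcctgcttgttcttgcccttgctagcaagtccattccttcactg
Acsm1 (chr7:119617562-119617861, plus strand): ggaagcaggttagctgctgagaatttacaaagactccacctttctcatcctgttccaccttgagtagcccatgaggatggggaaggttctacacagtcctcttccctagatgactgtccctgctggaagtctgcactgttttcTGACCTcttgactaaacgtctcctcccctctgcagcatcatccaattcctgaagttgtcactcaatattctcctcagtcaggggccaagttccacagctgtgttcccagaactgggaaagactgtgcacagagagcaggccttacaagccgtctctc
Keg1 (chr19:12695540-12695839, plus strand): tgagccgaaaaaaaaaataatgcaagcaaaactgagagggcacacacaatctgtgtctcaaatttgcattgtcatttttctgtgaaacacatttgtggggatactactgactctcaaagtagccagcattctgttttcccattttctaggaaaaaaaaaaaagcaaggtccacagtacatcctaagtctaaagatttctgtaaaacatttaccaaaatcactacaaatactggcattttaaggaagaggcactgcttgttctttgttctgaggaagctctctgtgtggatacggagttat
Glyat (chr19:12633058-12633357, plus strand): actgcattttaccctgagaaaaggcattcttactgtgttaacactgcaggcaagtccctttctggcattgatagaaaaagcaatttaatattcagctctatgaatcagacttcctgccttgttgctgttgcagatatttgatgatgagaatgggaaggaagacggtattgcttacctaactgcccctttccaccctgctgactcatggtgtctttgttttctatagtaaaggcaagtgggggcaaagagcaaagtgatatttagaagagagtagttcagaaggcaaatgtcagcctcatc
All 7 members matched, with 8 promoters in all because Acsm2 has a pair of start sites. The letters TATAAA (the TATA box), searched on both strands as were the other motifs, occurred in 1 of the 8 promoters, that of Acsm2, beginning at position -28 from the start site. They occurred in 13.6% of all 32851 promoters of the same length. AGGTCA (a nuclear receptor half-site) occurred in 1 of 8, in Acsm1 at position -107 on the minus strand (printed as TGACCT), and in 16.3% of all. CAAAGTCCA (an HNF4 motif) occurred in 0 of 8 and in 0.475% of all. No matches overlapped. A match is a description of letters, and no factor's binding was measured.

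No member shared a 50-base stretch of its principal transcript with another member. Coding sequences of the Acsm genes, 1719 to 1740 bases long, were 61.7% to 66.8% identical in pairs. The coding sequences of Glyat (888 bases) and Keg1 (885 bases) were 73.1% identical.

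By level per kilobase of exonic length in cKO kidneys, the order was Acsm2 (68.4 to 193 CPM per kb), Glyat (78.4 to 144), Acsm3 (49.98 to 113), Keg1 (42.7 to 77.6), Acsm1 (18.7 to 35.5) and Acsm5 (7.18 to 14.7). In Control kidneys it was Acsm2 (659 to 837 CPM per kb), Keg1 (311 to 615), Acsm3 (272 to 403), Glyat (141 to 238), Acsm1 (90.0 to 127) and Acsm5 (33.0 to 58.5). In cKO kidneys the 4 highest overlapped their neighbours in that order. In Control kidneys Keg1 and Acsm3 were the neighbours that overlapped. The order depends on the length used. Reads over all exons of a gene were counted in either case, so reads outside the principal transcript raise values per kilobase of it. Keg1 has an exonic length of 5664 bases and a principal transcript of 1676 bases. For Acsm2 these are 7424 and 6738 bases. Per kilobase of the principal transcript Keg1 had the highest mean in both groups, at 212 ± 49.4 CPM per kb in cKO kidneys and 1646 ± 457 CPM per kb in Control kidneys. On that scale Acsm2 was at 143 ± 59.9 CPM per kb in cKO kidneys and 839 ± 88.6 CPM per kb in Control kidneys.

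Summed over the family, the Acsm genes held 1461 ± 533 CPM in cKO kidneys and 7741 ± 621 CPM in Control kidneys (SD, n = 4 each). Of their reads per kilobase of exonic length, Acsm2 made up 51.2 ± 5.75% in cKO kidneys and 60.7 ± 3.68% in Control kidneys. Acsm3 made up 33.2 ± 3.65% in cKO kidneys and 27.5 ± 4.44% in Control kidneys. The shares of Acsm2 in single libraries overlapped, at 47.4% to 59.7% in cKO kidneys and 57.4% to 65.8% in Control kidneys. Per kilobase of the principal transcript, Acsm2 made up 42.4% in cKO kidneys and 51.8% in Control kidneys, and Acsm3 made up 44.6% in cKO kidneys and 38.0% in Control kidneys. Which of the pair led in cKO kidneys thus depends on the length chosen. The reads again include all exons, and for Acsm3 the exonic length is 4936 bases and the principal transcript 2755 bases. Glyat and Keg1 together held 869 ± 131 CPM in cKO kidneys and 3715 ± 952 CPM in Control kidneys.

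**Figure D2:**
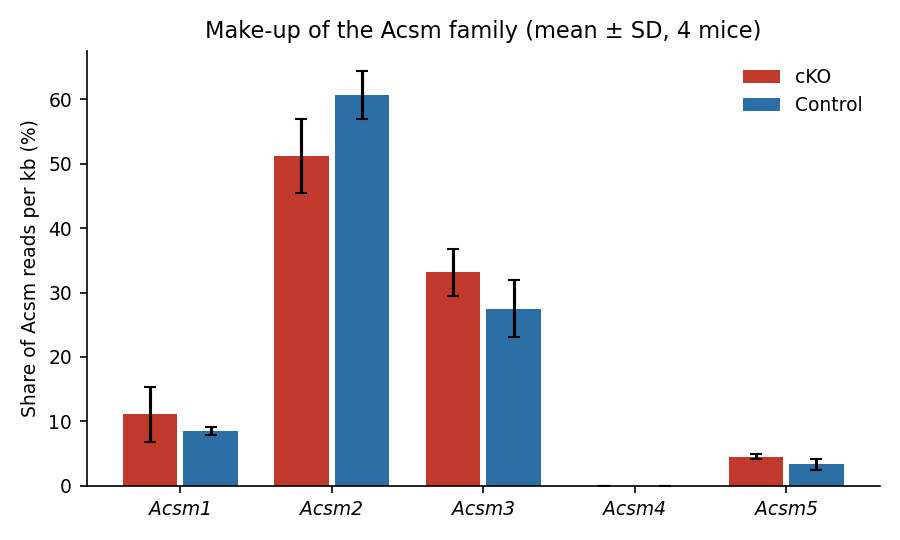
Share (%) of each gene in the Acsm family's reads per kilobase of exonic length; bars are means and error bars SD over 4 mice, cKO left and Control right. Acsm2 made up 51.2% in cKO and 60.7% in Control kidneys, and Acsm4 is at 0 in cKO kidneys.

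Within each library, ratios between members depend little on the scaling. Over the 15 pairs, an exact two-sided permutation test over the 70 ways to divide the 8 libraries cannot go below p = 0.0286. No pair passed after Benjamini-Hochberg adjustment over the pairs (smallest adjusted p = 0.0714), and 6 pairs reached the smallest exact p of 0.0286 with groups that did not overlap. The widest of these was Keg1 over Glyat. Its log2 ratio was -0.92, 0.07, 0.02 and -1.23 in KO16, KO18, KO19 and KO20, against 1.62, 1.39, 1.68 and 1.34 in C10, C11, C13 and C14. The cKO kidneys had about equal reads of both genes or fewer of Keg1, and the Control kidneys all had more Keg1 than Glyat reads. The mean log2 ratio was -0.52 ± 0.66 in cKO kidneys and 1.51 ± 0.17 in Control kidneys, a difference of -2.02. Without KO16, KO20 and C11 the difference was -1.50. The other 5 pairs were Glyat over Acsm2 (1.74), Glyat over Acsm3 (1.21), Glyat over Acsm1 (1.18), Keg1 over Acsm3 (-0.81) and Acsm5 over Acsm2 (0.70). Without KO16, KO20 and C11 the difference was 0.69 for Glyat over Acsm2, 0.43 for Glyat over Acsm3 and 0.75 for Glyat over Acsm1.

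**Figure D3:**
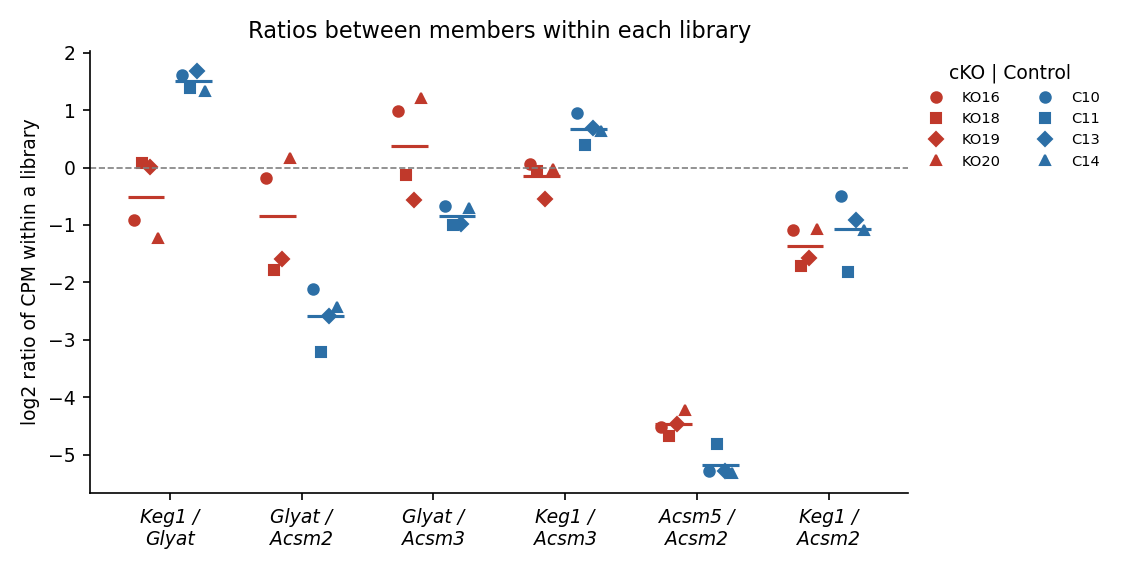
log2 ratio of CPM between pairs of members within each library, cKO left and Control right; lines are group means. Keg1 over Glyat averaged -0.52 in cKO and 1.51 in Control kidneys, and Keg1 over Acsm2 overlapped between groups.

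Within groups the members did not all vary together. With group means removed, log2 CPM over the 8 libraries correlated at r = 0.89 between Acsm2 and Acsm5, 0.80 between Acsm3 and Keg1, and 0.76 between Acsm2 and Acsm3. Glyat ran the other way, at r = -0.88 with Acsm5 and -0.64 with Acsm2. Acsm1 correlated at 0.12 to 0.27 with the other 5. These correlations are descriptions over 8 libraries that share their depth and their lean on transcript length. Glyat was highest in KO16 and KO20 among the cKO kidneys and lowest in C11 among the Control kidneys, roughly the reverse of the order of the length slopes. The part of the length slope in this was not tested beyond the fits with it as a covariate.

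The genes whose log2 CPM followed each member most closely over the 8 libraries differed between members. For Acsm1 they were Ppif (Pearson r = 0.996), the mitochondrial cyclophilin, and P2rx4 (0.993), an ATP-gated channel. For Acsm2 they were Cndp1 (0.998), a carnosine dipeptidase, and Plekhb2 (0.995). For Acsm3 they were Pum3 (0.994) and Anxa13 (0.991), an annexin. For Acsm5 they were Slc25a13 (0.998), a mitochondrial aspartate-glutamate carrier, and Slc18a1 (0.998), a vesicular monoamine transporter. For Glyat, Calml4 (0.993), a calmodulin-like protein, was among them. For Keg1 they were Slc22a28 (0.997), of the organic anion transporter family, and Slco1a1 (0.996), an organic anion transporter. These r values include the difference between groups. Each pair was picked as the closest among tested genes with a symbol, leaving out the members, clone-type names (such as Gm or Rik names) and pseudogenes.

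The 5 Acsm genes form a cluster on the plus strand of chr7:119519463-119787513, a span of 268 kb, in the order Acsm5, Acsm2, Acsm1, Acsm4 and Acsm3. Of 14 other genes within 250 kb of the span, 10 were tested, and 0 fell and 0 rose. Their log2 fold changes ran between -0.66 and 1.25. Umod, the uromodulin gene of the thick ascending limb, which lies beyond the Acsm5 end of the span, had 3261 ± 443 CPM in cKO kidneys and 2638 ± 233 CPM in Control kidneys (log2 fold change 0.31, edgeR adjusted p = 0.406). Thumpd1, which lies between Acsm4 and Acsm3, had 26.5 ± 5.57 CPM in cKO kidneys and 36.9 ± 1.57 CPM in Control kidneys (-0.48, edgeR adjusted p = 0.184). Without KO16, KO20 and C11 the adjusted p was 0.0117 for Umod (0.45) and 0.00839 for Thumpd1 (-0.42).

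Glyat and Keg1 lie on the plus strand of chr19:12633308-12719902, a span of 86.6 kb. Of 24 other genes within 250 kb, 8 were tested, of which Gm4952 fell and Mpeg1 rose. Gm4952, which directly precedes Glyat and encodes a glycine N-acyltransferase-like protein, had 0.478, 0.448, 0.667 and 0.422 CPM in KO16, KO18, KO19 and KO20, against 7.09, 4.65, 5.26 and 5.27 CPM in C10, C11, C13 and C14. It was low in every cKO kidney, with a log2 fold change of -3.44 (SE 0.28, edgeR adjusted p = 0.00025). Glyat, with the smaller log2 fold change of -0.90, thus lies between Gm4952 and Keg1. Mpeg1, a perforin-like gene of macrophages, had 50.3 ± 12.6 CPM in cKO kidneys and 20.9 ± 2.76 CPM in Control kidneys (1.27, edgeR adjusted p = 0.00721).

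**Figure D4:**
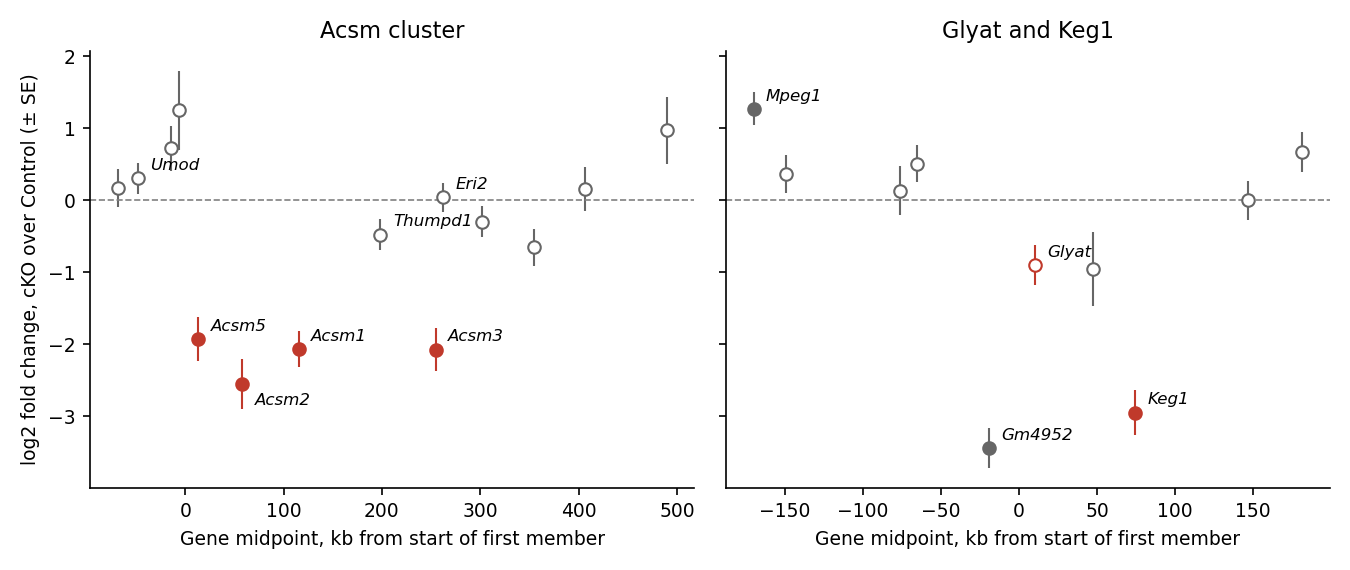
log2 fold change (cKO over Control, with SE bars) of each tested gene by the distance of its midpoint from the start of the first member, for the Acsm cluster (left) and for Glyat and Keg1 (right). Members are red and other genes grey, filled where the edgeR adjusted p was under 0.05; the 4 tested Acsm genes lie at -2.56 to -1.93 and none of their 10 tested neighbours is filled.

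Other conjugating transferases fell as well. Of 9 tested N-acyltransferases beside the members, 8 fell, 0 rose and 1 did not pass, with a median log2 fold change of -2.04 against 0.0066 over all genes tested. Nat8f1, of a family of N-acetyltransferases, had 55.7, 30.2, 16.5 and 19.8 CPM in KO16, KO18, KO19 and KO20, against 426, 322, 423 and 412 CPM in C10, C11, C13 and C14 (-3.70, edgeR adjusted p = 0.00081). Its relative Nat8f3 fell to 1.70 ± 0.478 CPM in cKO kidneys, against 10.7 ± 2.41 CPM in Control kidneys (-2.66, adjusted p = 0.000773). Baat, the bile acid transferase, had 1.57 ± 0.263 CPM in cKO kidneys and 1.42 ± 0.534 CPM in Control kidneys and did not pass. Of 5 tested enzymes that split N-acyl amino acids, 4 fell and 0 rose (median -1.40). They include Acy3, the aminoacylase of mercapturates, with 387 ± 101.2 CPM in cKO kidneys and 2094 ± 278 CPM in Control kidneys (-2.44, adjusted p = 0.00081), Pm20d1 (-2.07, adjusted p = 0.00725) and Aspa, aspartoacylase (-1.40, adjusted p = 0.0113). Without KO16, KO20 and C11 the log2 fold change of Pm20d1 was -1.35.

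Of 10 carriers that move hippurate and other organic anions, 7 fell and 0 rose (median -1.50). Slc22a6, the basolateral carrier OAT1, had 196, 192, 132 and 54.5 CPM in KO16, KO18, KO19 and KO20, against 646, 1218, 790 and 694 CPM in C10, C11, C13 and C14 (-2.54, edgeR adjusted p = 0.00475). Slc22a8, the carrier OAT3, had 2.60, 10.9, 3.76 and 2.24 CPM in KO16, KO18, KO19 and KO20, against 195, 576, 195 and 206 CPM in C10, C11, C13 and C14 (-5.90, adjusted p = 0.00107). Both were lower in every cKO kidney than in any Control kidney, and C11 was the highest for both. Without KO16, KO20 and C11 the log2 fold change of Slc22a8 was -4.80. The urate carrier Slc22a12 (-2.10, adjusted p = 0.00153) and the apical Slc17a3 (-2.11, adjusted p = 0.00175) fell too. The count of 7 was 4 without C13 and 4 without KO20. Over all genes, 1016 fell in the main fit, 575 without C13 and 566 without KO20.

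Glycine is the other substrate. Of 25 tested genes of its synthesis, cleavage, use and transport or of linked steps, 14 fell and 0 rose (median -1.18). The list thus holds users of glycine too, not its supply alone. The number that fell was 7 without KO20 and 22 without KO16, KO20 and C11. Over all genes, 566 fell without KO20, 4486 of 15881 without KO16, KO20 and C11, and 1016 in the main fit. The transaminase Agxt2 had 15.3 ± 2.02 CPM in cKO kidneys and 105 ± 12.99 CPM in Control kidneys (-2.79, edgeR adjusted p = 0.000215). Dmgdh, which turns dimethylglycine into sarcosine, fell (-1.66, adjusted p = 0.000933), as did Amt of the glycine cleavage system (-1.43, adjusted p = 0.0017). For coenzyme A, 5 of 14 genes fell and 0 rose (median -0.60). Pank1, a pantothenate kinase, had 92.3 ± 38.7 CPM in cKO kidneys and 398 ± 43.3 CPM in Control kidneys (-2.11, adjusted p = 0.00317). Enpp3 (-1.58, adjusted p = 0.00584) and Nudt19, a peroxisomal coenzyme A hydrolase (-1.10, adjusted p = 0.0123), fell. The Nudt19 call ended without C13 (adjusted p = 0.0518) or KO20 (0.0746). Vnn1, a pantetheinase, had 124 ± 43.2 CPM in cKO kidneys and 127 ± 16.7 CPM in Control kidneys (-0.03, adjusted p = 0.96), and its adjusted p was 0.0342 without KO16, KO20 and C11 (-0.30). Of the 14 coenzyme A genes, 2 fell without C13, 2 without KO20 and 10 without KO16, KO20 and C11. Over all genes, the numbers that fell in those fits were 575, 566 and 4486.

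Of 16 tested acyl-CoA synthetases outside the Acsm family, 6 fell, 2 rose and 8 did not pass (median -0.25). Acsl6 had 0.691 ± 0.067 CPM in cKO kidneys and 0.143 ± 0.0573 CPM in Control kidneys (2.24, edgeR adjusted p = 0.0038), and Acsbg1 had 2.59 ± 1.37 CPM in cKO kidneys and 0.592 ± 0.0726 CPM in Control kidneys (2.11, adjusted p = 0.0101). Both are known as brain forms for long-chain acids, and both were low here. Acsl6 had 88 reads over all 8 libraries. It was at 0.0869 to 0.222 CPM in Control kidneys, where 3 reads are 0.120 to 0.145 CPM. Aacs, for acetoacetate, fell (-2.41, adjusted p = 0.00873). Without KO16, KO20 and C11 the log2 fold change was 1.32 for Acsbg1 and -1.57 for Aacs, and both passed. The number that fell was 3 without C10 or without C14, 2 without C13, and 1 without KO20 or with library totals alone. Over all genes it was 712 without C10, 605 without C14, 575 without C13, 566 without KO20 and 548 with library totals alone. Of 12 thioesterases, which split acyl-CoA, 1 fell and 1 rose (median -0.08). Acot12, the acetyl-CoA thioesterase, fell to 90.2 ± 21.1 CPM in cKO kidneys, against 285 ± 19.7 CPM in Control kidneys (-1.66, adjusted p = 0.00213). Acot9 rose (0.69, adjusted p = 0.0368), a call that ended without any of C10, C11, C13, C14, KO19 and KO20 (adjusted p = 0.0622 to 0.149). The Acot9 call also ended with no filter (adjusted p = 0.11). Acot6 did not pass (-0.93, adjusted p = 0.0541) but did without KO18 (-1.18, adjusted p = 0.0226) and without KO16, KO20 and C11 (-0.53, adjusted p = 0.0303). With all 8 libraries, Acot6 passed with RLE factors (adjusted p = 0.046) and with the length slope as a covariate (0.0072). It also passed by DESeq2 (adjusted p = 0.0107) and by limma-voom (0.0469). The number of thioesterases that fell was 2 without KO16 or without KO18, and 7 without KO16, KO20 and C11. Over all genes, 1016 fell in the main fit, 1334 without KO16, 916 without KO18, and 4486 without KO16, KO20 and C11.

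Oxidation is the other fate of a medium-chain acyl-CoA. Of 20 genes for oxidation of short-, medium- and branched-chain acyl-CoAs, 10 fell, 0 rose and 10 did not pass (median -0.73). The list includes genes of branched-chain amino acid breakdown, such as Ivd and Hibch, so its count is not one of medium-chain oxidation alone. Acat1, which splits acetoacetyl-CoA, had 442 ± 20.3 CPM in cKO kidneys and 1245 ± 169 CPM in Control kidneys (-1.49, edgeR adjusted p = 0.00187). Acadm, the medium-chain dehydrogenase, had 419 ± 132 CPM in cKO kidneys and 984 ± 73.9 CPM in Control kidneys (-1.23, adjusted p = 0.0178), a call that ended without C13 (0.0653) or C14 (0.0536). Hibch, of valine breakdown, fell (-1.04, adjusted p = 0.0134), a call that ended without C13 (0.0527), C14 (0.0503) or KO20 (0.0619). Ivd, of leucine breakdown, fell (-1.42, adjusted p = 0.0143; -0.93 without KO16, KO20 and C11). Scaled to library totals alone, Ivd (adjusted p = 0.0777) and Acadm (0.0816) did not pass. The number of oxidation genes that fell depended on single libraries. It was 6 without C10, KO18 or KO19, 4 without C14 or KO20, and 3 without C13. It was 19 without KO16, KO20 and C11, and 2 with library totals alone. Over all genes, 1016 fell in the main fit. That number was 712 without C10, 916 without KO18, 751 without KO19, 605 without C14, 566 without KO20 and 575 without C13. It was 4486 of 15881 without KO16, KO20 and C11, and 548 with library totals alone. The part of this change over all genes in the list counts was not tested.

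**Figure D5:**
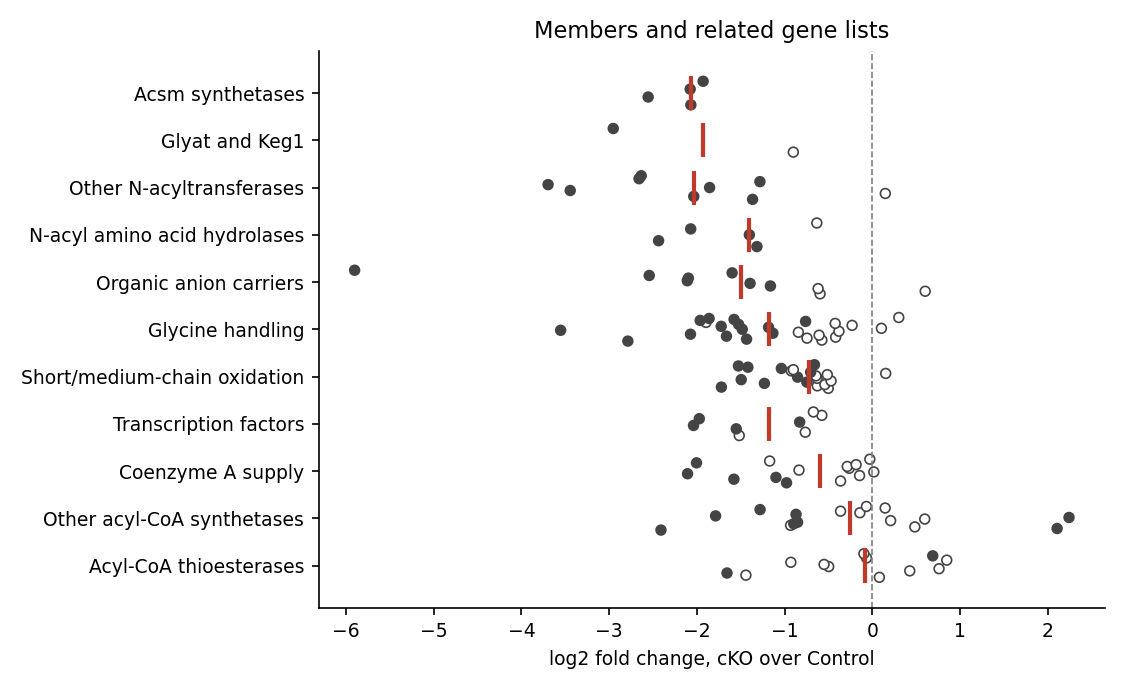
log2 fold change (cKO over Control) of each tested gene, 1 point a gene, in the members and 9 related lists; filled points have an edgeR adjusted p under 0.05 and red bars are list medians. The medians lie at -2.07 for the Acsm synthetases, -2.04 for other N-acyltransferases and -0.08 for acyl-CoA thioesterases. The short/medium-chain oxidation list also holds genes of branched-chain acyl-CoA oxidation.

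Of 8 transcription factors known to act in proximal tubule cells, 4 fell and 0 rose (median -1.17). Hnf4g had 3.46 ± 0.956 CPM in cKO kidneys and 14.3 ± 2.82 CPM in Control kidneys (-2.04, edgeR adjusted p = 0.00196), and Ppara, the fatty acid receptor, had 11.8 ± 6.07 CPM in cKO kidneys and 46.6 ± 20.6 CPM in Control kidneys (-1.97, adjusted p = 0.019; 0.0595 with library totals alone). Hnf4a had 136, 407, 336 and 123 CPM in KO16, KO18, KO19 and KO20, against 557, 919, 760 and 703 CPM in C10, C11, C13 and C14. The groups did not overlap, and KO16 and KO20 were the lowest (-1.55, adjusted p = 0.0363). The Hnf4a call ended without any of C10 (0.0565), C11 (0.0773), C13 (0.0927), C14 (0.082), KO16 (0.0549) and KO20 (0.0739), and with library totals alone (0.126). It held without KO16, KO20 and C11 together, at a smaller log2 fold change of -0.90 (adjusted p = 0.000792), and with the length slope as a covariate (-1.40, adjusted p = 0.000784). Without the same 3 libraries Ppara was at -1.16 (adjusted p = 0.000301). The count of 4 was 2 without C10, C11, C13, C14 or KO20, and 1 with library totals alone. Over all genes, 566 (without KO20) to 887 (without C11) fell without 1 of those libraries. With library totals alone 548 fell, and in the main fit 1016.

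Markers of cell types moved beside the members. Of 14 proximal tubule markers, 11 fell and 0 rose (median -1.75), and 7 fell without KO20. Over all genes, 1016 fell in the main fit and 566 without KO20. The summed level of the proximal tubule markers was 21673 to 61659 CPM in cKO kidneys and 55302 to 113003 CPM in Control kidneys, and none was at 0. Kap and Cubn were among the 3 that did not pass. Of 6 thick ascending limb markers and 6 markers of the distal convoluted and connecting tubule, 0 fell and 0 rose (medians 0.02 and 0.01). Of 8 collecting duct markers, the water channel gene Aqp2 rose (1.10, edgeR adjusted p = 0.0117), Aqp3 fell (-1.03, adjusted p = 0.0231) and 6 did not pass. Of 6 podocyte and 6 endothelial markers, 0 fell and 0 rose (medians -0.55 and -0.46). Of 8 leukocyte markers, 5 rose (Cd68, Adgre1, C1qa, Itgam and Lyz2), and Ptprc, Cd3e and Cd79a did not pass (median 1.76). Their summed level was 177 to 759 CPM in cKO kidneys and 46.4 to 92.9 CPM in Control kidneys. Lyz2 alone was at 96.7 to 592 CPM in cKO kidneys and 14.5 to 49.0 CPM in Control kidneys. Of 6 stromal markers 2 rose. The liver also makes these enzymes. Of 8 hepatocyte genes 6 were tested, of which 2 fell, 0 rose and 4 did not pass (median -0.63), with a summed level of 49.4 to 168 CPM in cKO kidneys and 255 to 473 CPM in Control kidneys. Those that fell were Ttr, at 29.9 ± 22.7 CPM in cKO kidneys and 299 ± 89.1 CPM in Control kidneys (-3.32, edgeR adjusted p = 0.00377), and Alb, at 0.598 ± 0.322 CPM in cKO kidneys and 9.16 ± 5.80 CPM in Control kidneys (-3.89, adjusted p = 0.00216). Serpina1a was at 35.8 ± 21.6 CPM in cKO kidneys and 37.8 ± 2.43 CPM in Control kidneys. The untested Cps1 and Ahsg had 10 and 20 reads over all 8 libraries. The part of these shifts in the members' values was not tested.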

How the data were processed

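The authors deposited 1 table of raw read counts over Ensembl genes for each mouse, in whole numbers. Per the submitters' processing notes, cutadapt 1.3, STAR 2.4.0g and HTSeq 0.6.1 were used on build GRCm38. The annotation release and the counting's strand setting were not given in the sources used here, although the kit marks strand per the labels' protocols. Closing lines that name no gene (39.7% to 56.2% of each file) were left out of library sizes and tests. GENCODE vM21 gave symbols, positions and exonic lengths, and 46005 identifiers matched and 512 did not.

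Tests used edgeR 4.0.16 in R 4.3.3: filterByExpr (minimum count 10, minimum total 15), TMM factors and the quasi-likelihood F test of cKO against Control on all 8 libraries, with Benjamini-Hochberg adjustment over 15382 genes and a threshold of 0.05. The common biological coefficient of variation was 0.386, so the spread between mice, not counting error, set the precision for genes with many reads. CPM are TMM-scaled, log2 CPM used a prior count of 2, and SE came from the F statistic. Each cKO over Control difference of ratios was tested by exact permutation. The fit was tested on simulated data. Alternatives were other scalings, limma-voom (limma 3.58.1), DESeq2 1.42.0, other filters, libraries left out and the length slope as a covariate. List counts under left-out libraries and library totals, and shares by principal transcript length, were added after seeing the data.

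The members, lists and alternatives were chosen with earlier results of these data known. Named genes are the members, Xpr1, the 3 members of each pathway list with the smallest p, genes picked for their role (Gm4952, Hnf4a, Slc22a6, Slc22a8, Acadm, Nudt19 and Vnn1), and neighbours that passed. For each tested member the 2 genes whose log2 CPM correlated best are named too, leaving out members, clone-type names and pseudogenes. Umod, Thumpd1, Eri2, Gm15962, Baat and the single cell type markers were named after their values were seen. A few genes and 1 motif that fall under these rules are not reported here.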

Additional observations from a re-analysis of the deposited data

Results flagged for a closer look

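Of 46 groups of 4 values checked by Dixon's test, 1 held a value far from the others. Chance flags about 1 in 20 groups. The log2 ratio of Acsm5 over Acsm2 was -4.68 to -4.21 in the cKO kidneys, and in Control kidneys it was -4.80 in C11 and -5.32 to -5.29 in the other 3.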

How the results depend on the processing

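Acsm1, Acsm2, Acsm3, Acsm5 and Keg1 kept their direction and their call in all 17 other fits, and the number of tested members that fell was 5 or 6. Glyat kept its direction in all 17 and passed in 6, by DESeq2 (-0.90), by limma-voom (-0.92), with the length slope as covariate (-1.09), and without KO16, KO20 and C11 (-1.45). Leaving out 1 library at a time, its log2 fold change ran from -1.08 (without KO16) to -0.78 (without KO19). It passed without KO16, its highest cKO kidney, and without C11, its lowest Control (-1.04). The cause of these changes was not tested. The number of genes called in all was 2170, 3267 by DESeq2, 5111 with the length slope, 9175 without KO16, KO20 and C11, and 1106 (without C13) to 2697 (without KO16) with 1 library left out. It was 1436 without C10, 1200 without C14 and 1311 without KO20. The Acsm2 share of Acsm reads was 64.8% in cKO and 72.9% in Control kidneys with no division by length, and 42.4% in cKO and 51.8% in Control kidneys by principal transcript length. Vnn1 turned sign with RLE factors (0.0061), upper-quartile factors (0.11) and library totals alone (0.27), and without C14 (0.02), KO18 (0.03) or KO20 (0.21), and ran from -0.29 to 0.21 with 1 library left out. Eri2 turned sign without C11 (-0.032) or KO18 (-0.012), and ran from -0.032 to 0.14 with 1 library left out. The Control mice were littermates of the cKO mice, but the labels give no litter or pairing, so no analysis by litter was possible. With 4 mice a group, the spread between mice limits what can be called among the members, not depth, except for Acsm4. Depth also limits genes with few reads outside the members, such as Acsl6.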
